A study of Mus musculus with 8 samples.

Results

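Transcripts of the cell cycle brakes, the D-type cyclins and the p53 circuit were followed in liver RNA of 8 animals. The set holds 9 genes chosen by symbol: the Cdk inhibitors Cdkn1a (p21) and Cdkn1b (p27), the p53 gene Trp53, the p53-responsive genes Mdm2 and Ccng1, the D-type cyclins Ccnd1, Ccnd2 and Ccnd3, and the S phase enzyme gene Tk1. All probe sets annotated to 1 of these symbols were taken, 12 of the 12422 probe sets that are no controls, and they covered 8 of the 9 genes. Where a gene had more than 1 set, the brightest stood for it and the other served as a check. No set carried the symbol Trp53 alone, so the p53 transcript itself was not analysed here.

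The animals were female Ames mice, +/+ or +/df at the Ames dwarf locus and phenotypically normal. The labels do not say which animals carried the df allele. Every animal received 30% less food than freely fed normal females ate, and was killed at 24 to 26 months of age. Total liver RNA was read on Affymetrix mouse U74Av2 arrays, which measure each transcript with a set of short probes, with 1 array per mouse and 8 mice in a single group. No freely fed, young or dwarf animal was analysed here, so the values describe levels and their spread between animals and not an effect of the diet, of age or of the dwarf allele.

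The D-type cyclins activate Cdk4 and Cdk6, which phosphorylate the retinoblastoma protein and free E2F factors to switch on S phase genes such as Tk1. p21 and p27 bind cyclin-Cdk complexes and hold the cell in G1. p53 raises transcription of Cdkn1a, Ccng1 and Mdm2 after DNA damage and other stress, and the Mdm2 protein in turn marks p53 for degradation. Adult hepatocytes are mostly quiescent, and cyclin D1 is induced when they re-enter the cycle after loss of liver tissue.

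The p53-responsive members can be placed beside the sequence upstream of their starts. Promoter windows of RefSeq (GRCm38.p6, 250 bases before to 50 after each start) were found for 7 of the 9 genes; Ccnd1 and Ccnd2 had none in the table used. The bases before each start were searched for a p53 full site, taken as 2 copies of the 10-base p53 consensus in tandem with no spacer and at most 1 mismatch in all. The consensus is its own reverse complement, so 1 pass reads both strands. This form of the motif was chosen after the sequences had been seen. It occurred in 25 of 32851 promoter windows (0.0761%), and the windows of Cdkn1a and Ccng1 were among them. The stretches are shown because these 2 genes were, with Mdm2, highest on the same array (replicate 5) by their brightest sets. That array was also highest for 34.1% of the genes kept for testing, and the other Cdkn1a set was lowest on it, at 73.8. Capitals mark the full site in each stretch.
Cdkn1a (chr17:29090888-29090978, plus strand): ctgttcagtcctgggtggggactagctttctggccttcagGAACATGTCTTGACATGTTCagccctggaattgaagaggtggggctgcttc
Ccng1 (chr11:40755422-40755521, minus strand): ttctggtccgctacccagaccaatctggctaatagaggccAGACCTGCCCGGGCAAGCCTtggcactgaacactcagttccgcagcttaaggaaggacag
The Cdkn1a site lies 51 to 32 bases before the first of its 2 annotated starts, and the window of the second start held none. The Ccng1 site lies 195 to 176 bases before its start. No such site was in the windows of Cdkn1b, Trp53, Mdm2, Ccnd3 or Tk1, which says only that these letters are not there; the known p53 elements of Mdm2 are in its first intron, outside the window. A second search, for the E2F motifs TTTCGCGC, TTTGGCGC, TTTCCCGC and TTTGCCGC on both strands, found none in the windows of the 7 genes and at least 1 in 1.86% of all windows. Only exact matches were taken and these are rare, so their absence does not show that a promoter, that of Tk1 included, lacks an E2F site. A motif match is a description of sequence and not evidence of binding in these livers.

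One array stood apart before any member was read. Its 3′ and 5′ control sets for Gapdh, which were about equally bright on the others, gave a log2 ratio of 4.35 on replicate 5; it was 0.33 on replicate 6 and −0.24 to −0.17 for the remaining 6. For pyruvate carboxylase replicates 5 and 6 both had raised log2 ratios (4.33 and 4.30), and the rest had 1.42 to 2.76. The median correlation of replicate 5 with the other arrays was 0.881 and that of replicate 6 was 0.943, against 0.962 to 0.974 for the rest. Of the 4810 genes that passed the level filter, 34.1% had their highest and 28.3% their lowest value on replicate 5. The hepatocyte marker list (7 of 7 genes measured) summed to between 151896 and 167584 signal units on every array. The lowest of these sums was that of replicate 5, the others starting at 153543. Of the 10 macrophage markers 8 were measured, and their sum was 3615 on replicate 5, below the 4489 to 5537 of the other arrays. On replicate 6 the sums of stellate cell (5864 against 7336 to 8321) and erythroid markers (2844 against 6752 to 7783) were lowest, and neutrophil (951 against 533 to 779) and T and NK cell markers (569 against 363 to 509) were highest. Skeletal muscle markers were highest on replicate 7 (1362 against 448 to 756). Ccnd3 and Ccna2 were among the genes with their highest value there, as were Cdk9, Plk3, Ei24 and Plk1. The share of kept genes highest on replicate 7 was not counted, so no link is read from this. Exocrine pancreas markers (2 of 9 measured) ran from 594 on replicate 1 to 2841 on replicate 2, with 1967 on replicate 7. Replicate 2 was also the lowest array for Ccng1. For Mdm2 it was level with replicates 7 and 3 (344.2, 344.9 and 348.3), and in the deposited values replicate 3 was lower. The share of kept genes lowest on replicate 2 was not counted. Of these lists 7 of 8 stellate, 3 of 6 erythroid, 7 of 8 neutrophil, 7 of 9 T and NK cell and 5 of 5 muscle markers were measured. None of the measured markers lay at or under the floor on all arrays. The level filter was passed by only 1 of the 7 T and NK cell and 2 of the 7 neutrophil markers measured, so these sums rest mostly on dim sets. It was passed by 6 of 7 stellate, 2 of 3 erythroid and 3 of 5 muscle markers. The part of RNA quality and of cell makeup in the values below was not tested, and in bulk liver fewer cells of a type and less RNA per cell cannot be told apart. Results that rest on replicates 5 and 6 are given with and without them.

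The level filter, a mean log2 signal over the median probe set, was passed by 6 of the 8 genes: Cdkn1a, Mdm2, Ccng1, Ccnd1, Ccnd3 and Tk1. Signals are quantile-normalized intensities in arbitrary units. They compare arrays for 1 probe set and not 1 gene with another. Each animal has 1 array, so the order of animals within a gene carries no error of its own.

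**Figure D1:**
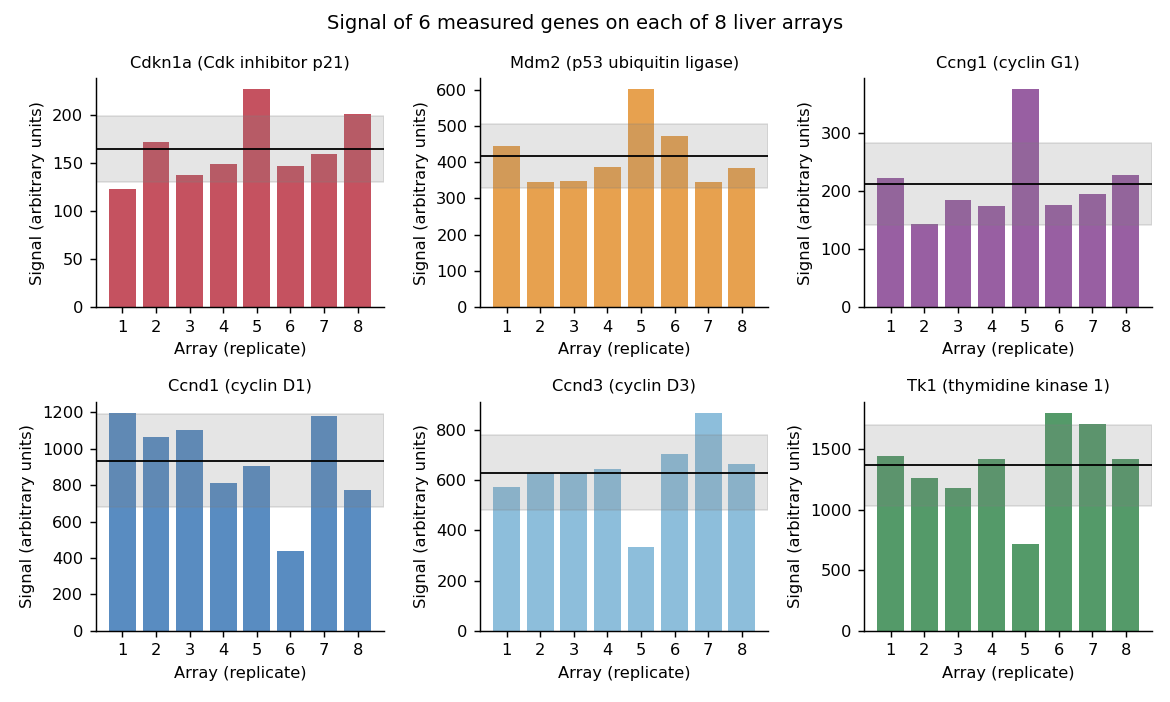
Signal in arbitrary units (vertical axes, from 0) on each of the 8 arrays (horizontal axes) for the brightest probe set of 6 genes; the line is the mean and the grey band 1 SD on either side (n = 8). Cdkn1a, Mdm2 and Ccng1 are highest on replicate 5, at 226, 601 and 376, where Ccnd3 and Tk1 are lowest, at 332 and 716; Ccnd1 is lowest on replicate 6, at 441.

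Among the brakes, Cdkn1a lay just above the level filter, with a signal of 164 ± 34.3 (SD, n = 8). It ran from 123 on replicate 1, through a median of 154, to 226 on replicate 5 and 200.2 on replicate 8. The highest array was thus 1.84 times the lowest, and without replicates 5 and 6 the range was 1.63-fold. Cdkn1b was at the edge of measurement. Its brighter set ran from 5.9 on replicate 8 to 38.2 on replicate 5 and had 2 arrays at or under the floor of 24.6, and its other set read 12.1 to 22.1, at or under the floor on all 8 arrays. No spread or order of Cdkn1b between animals was read from such values.

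Mdm2, the ubiquitin ligase of p53, was at 416 ± 88.4 (SD, n = 8). It was lowest on replicates 2 (344.2) and 7 (344.9), had a median of 386 and was highest on replicate 5 at 601, followed by replicate 6 at 473. On the other 6 arrays it lay within a 1.29-fold range (344 to 443), with a mean of 375 ± 38.7. This was the narrowest spread among the 6 genes once both arrays were left out, with a coefficient of variation of 10.3%, where the other 5 had 13.0% to 18.1%. The median over all 6211 kept probe sets on those 6 arrays was 13.3%.

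Ccng1, which encodes cyclin G1, a p53 target that recruits a phosphatase to Mdm2, was at 212 ± 71.2 (SD, n = 8). Its lowest array was replicate 2 at 143, its median 190.2 and its highest replicate 5 at 376. Replicate 5 was 2.04 times the median of the other 7 arrays, which lay between 143 and 228. The corresponding factor on replicate 5 was 1.56 for Mdm2 and 1.52 for Cdkn1a.

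Of the D-type cyclins, Ccnd1 was at 935 ± 257 (SD, n = 8). The lowest array was replicate 6 with 441, the other 7 spanned 772 to 1197 and the median was 987, so replicate 6 had 0.413 times the median of the other 7. Without replicates 5 and 6 the range was 1.55-fold. Ccnd3 was at 630 ± 149, with 332 on replicate 5, a median of 635 and 867 on replicate 7. Its other arrays lay between 573 and 703, and replicate 5 had 0.517 times the median of the other 7. By these sets the lowest animal was replicate 6 for cyclin D1 and replicate 5 for cyclin D3, but a dimmer Ccnd1 set was lowest on replicate 5 as well. The Ccnd2 set read 14.6 to 20.2 and stayed under the floor on all 8 arrays, so a cyclin D2 transcript was not detectable above the floor with it.

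Tk1, thymidine kinase of the salvage pathway, whose protein rises in S phase, was at 1369 ± 335 (SD, n = 8). Replicate 5 was lowest with 716, followed by replicate 3 with 1180. The median was 1419, and replicates 7 (1711) and 6 (1799) were highest. Replicate 5 had 0.504 times the median of the other 7 arrays, much like Ccnd3.

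**Figure D2:**
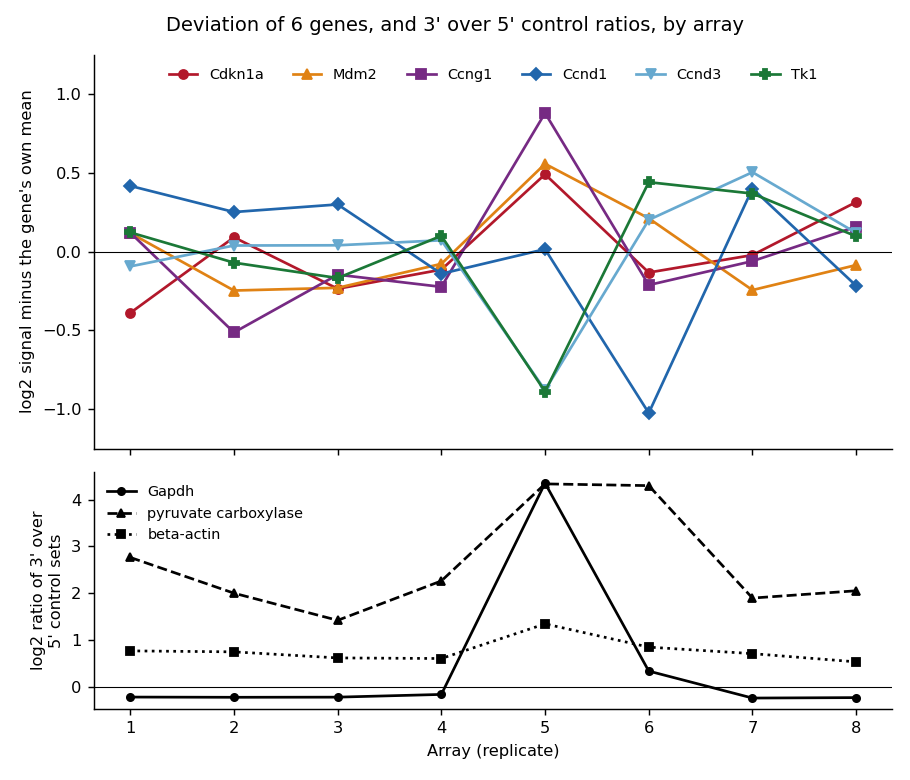
Upper panel, log2 signal of 6 genes minus each gene's own mean (vertical axis) by array (horizontal axis); lower panel, log2 ratio of the 3′ over the 5′ control set for 3 reference transcripts (Gapdh, β-actin, pyruvate carboxylase), array by array. On replicate 5, where the Gapdh ratio is 4.35, Ccng1 is 0.88 above its mean while Ccnd3 and Tk1 are −0.88 and −0.89 from theirs; on replicate 6 Ccnd1 is −1.02 from its mean.

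By their brightest probe sets, the p53-responsive members thus had their highest values on replicate 5 while Ccnd3 and Tk1 had their lowest. Cdkn1a, Mdm2 and Ccng1 were the members highest there (3 of 6 kept members, beside 34.1% of kept genes), and Ccnd3 and Tk1 were lowest (2 of 6, beside 28.3%). On replicate 6, Ccnd1 was lowest (1 of 6, beside 16.6%) and Tk1 highest (1 of 6, beside 18.8%). Together 5 of 6 members had an extreme on replicate 5, as did 62.4% of the 4810 kept genes. That array held an extreme of most genes, so the members' count says little about these genes in particular. Leaving out both doubtful arrays, none of the 6 genes had more than a 2-fold range.

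Several genes had a second probe set, and these did not always repeat the pattern. The other Cdkn1a set, dimmer than the filter, was lowest on replicate 5 at 73.8 and highest on replicate 3 at 203, with a median of 121. So the gene's highest array by 1 set was its lowest by the other. Over the 8 arrays the log2 values of the 2 Cdkn1a sets had a Pearson r of −0.493 (exact permutation p = 0.211, adjusted p = 0.422) and a Spearman rho of −0.381 (exact permutation p = 0.360, adjusted p = 0.480), adjusted over the 4 genes with a second set. Without replicates 5 and 8, the arrays farthest from the median, r was −0.0108. The high Cdkn1a value on replicate 5 therefore rests on 1 of its 2 probe sets.

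The sets of Ccnd1 followed each other more closely. The other Ccnd1 set, which also passed the filter, had a mean of 376 and a coefficient of variation of 26.6% (n = 8). It was lowest on replicate 5 at 235 and next on replicate 6 at 260.4, with a median of 388 and 493 on replicate 7. Pearson r between the sets was 0.721 (exact permutation p = 0.0277, adjusted p = 0.111) and Spearman rho 0.714 (exact permutation p = 0.0576, adjusted p = 0.230), which did not pass after adjustment over the 4 genes. Without replicates 6 and 8, the farthest from the median, r was 0.667, and without replicates 5 and 6 it was 0.884. Replicate 6 was low by both sets, whereas replicate 5 was low by only the dimmer one (906 by the brighter, near its mean).

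For Tk1 the other set was below the filter and split the animals. It read 31.7 to 41.1 on replicates 1, 4 and 8 and 237 to 349 on replicates 2, 3, 5, 6 and 7, with 310 on replicate 5. No pooled correlation is given for 2 such clusters, each too small to be tested alone. The brighter set showed no such split: it was 1442, 1421 and 1418 on replicates 1, 4 and 8, inside the range of the others. The low Tk1 value on replicate 5 therefore rests on the brighter set, as the other read 310 there against its median of 242. No correlation is read for Cdkn1b either, as its other set was at or under the floor on all 8 arrays.

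**Figure D3:**
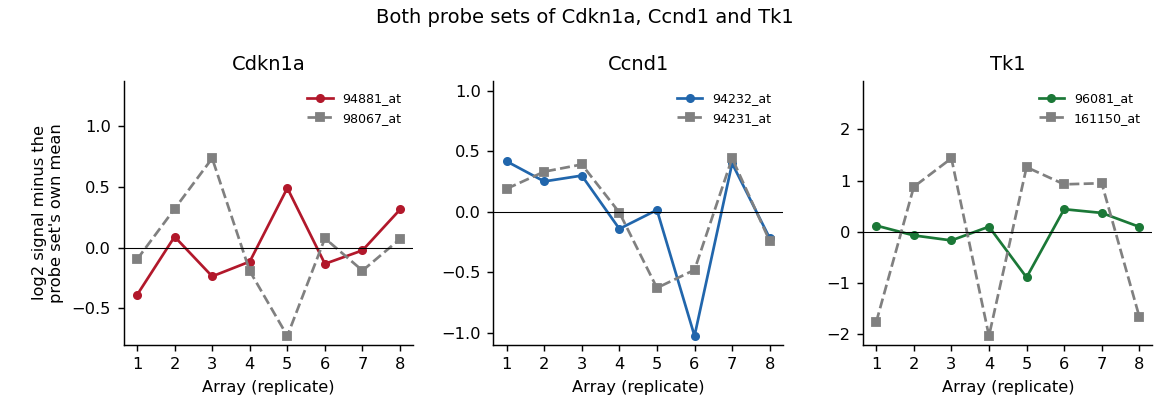
Log2 signal minus the probe set's own mean (vertical axes) by array (horizontal axes) for both probe sets of Cdkn1a, Ccnd1 and Tk1; the coloured line is the brighter set, the grey dashed line the other. The Cdkn1a sets part on replicate 5 (0.49 against −0.73), the Ccnd1 sets are both below their means on replicate 6 (−1.02 and −0.48), and the dim Tk1 set is between −2.03 and −1.65 on replicates 1, 4 and 8.

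Whether any member differed between animals more than transcripts of like level was asked with limma, which set each probe set's variance over the 8 arrays against a prior variance that follows the level (1-sided F test, Benjamini-Hochberg adjustment over all kept probe sets). The limma test called 0 of 6 members, beside 0 of 6211 probe sets (0%). At an unadjusted p of 0.05 it also called 0 of 6 members, beside 352 probe sets (5.67%), and a prior that does not follow the level called 0 of 6 as well. Ccnd1 came closest, with a log2 variance ratio of 1.86 (limma unadjusted p = 0.114, adjusted p = 0.985), then Tk1 with 1.47 and Ccnd3 with 1.23. The ratio was 0.56 for Ccng1, 0.073 for Mdm2 and −0.77 for Cdkn1a. The members' median was 0.90, beside 0.12 over all kept probe sets. More than a 2-fold range was seen in 4 of 6 members (Ccng1, Ccnd1, Ccnd3 and Tk1), beside 38.6% of kept probe sets. That count was 1 without replicate 5, and the variance ratios of Ccng1, Mdm2 and Ccnd3 were then below 0, at −0.83, −0.57 and −0.071. Leaving out replicate 6 gave Ccnd1 a ratio of 0.24 and leaving out replicate 5 gave it 2.92, while Tk1 had 0.53 without replicate 5. The prior had only 4.03 degrees of freedom, and the lowest limma adjusted p of any kept probe set was 0.842. Even the partner gene Hipk2, with a log2 variance ratio of 5.16, had a limma unadjusted p of 0.0018. The test could thus hardly call any probe set after adjustment, and its count of 0 says little about the members. A miss of the threshold in 8 animals does not show that the animals were alike.

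**Figure D4:**
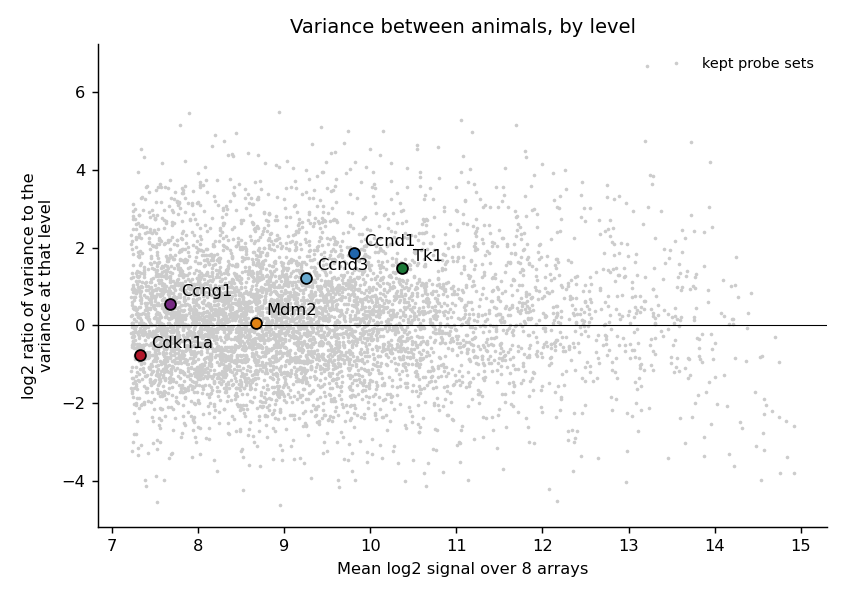
Log2 ratio of each probe set's variance over the 8 arrays to the prior variance at its level (vertical axis) against its mean log2 signal (horizontal axis); grey points are the 6211 kept probe sets and coloured points the 6 genes. All 6 lie inside the grey cloud, from −0.77 for Cdkn1a to 1.86 for Ccnd1.

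Pairs of members were then compared across animals, to see whether p53-responsive genes were high in the same animals and whether cyclins and brakes ran opposite. Of 12 pairs fixed by role, 6 had both genes above the filter, and p-values were adjusted over these 6. Ccng1 and Mdm2 had a Pearson r of 0.783 (exact permutation p = 0.0307, adjusted p = 0.184) and a Spearman rho of 0.476 (exact permutation p = 0.243, adjusted p = 0.693). Without replicates 2 and 5, the arrays farthest from the Ccng1 median, r was 0.0196, so the relation rests on those arrays; leaving out replicate 5 alone gave 0.313. Cdkn1a and Ccng1 had r = 0.570 (exact permutation p = 0.139, adjusted p = 0.417) and rho = 0.310 (exact permutation p = 0.462, adjusted p = 0.693). Without replicates 5 and 8 r was −0.816, and without replicate 5 alone it was −0.0495. Cdkn1a and Mdm2 had r = 0.383 (exact permutation p = 0.347, adjusted p = 0.676) and rho = −0.0238 (exact permutation p = 0.977, adjusted p = 0.977). That r turned to −0.543 without replicates 5 and 8. Without both replicates 5 and 6, r was 0.61 for Ccng1 and Mdm2, −0.0715 for Cdkn1a and Ccng1 and −0.405 for Cdkn1a and Mdm2. The positive r of both pairs with Cdkn1a thus rested on replicate 5.

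Cyclins and brakes showed no relation that passed. Cdkn1a and Ccnd1 had r = −0.132 (exact permutation p = 0.762, adjusted p = 0.901) and rho = −0.381 (exact permutation p = 0.360, adjusted p = 0.693), with r = −0.0858 without replicates 5 and 8, −0.593 without replicate 6 and −0.614 without both replicates 5 and 6. Ccnd1 and Ccnd3 had r = −0.0538 (exact permutation p = 0.901, adjusted p = 0.901) and rho = −0.310 (exact permutation p = 0.462, adjusted p = 0.693). Ccnd1 and Tk1 had r = −0.268 (exact permutation p = 0.451, adjusted p = 0.676) and rho = −0.0714 (exact permutation p = 0.882, adjusted p = 0.977). Without replicates 6 and 8 the latter pairs had r = 0.448 and 0.442. The exact test called 0 of 6 pairs after adjustment and 1 before it, and 0 of 6 by Spearman rho.

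The genes most like each member in pattern over the 8 arrays, among 4809 others, are a description without a test. Cdkn1a was most like Tgif1 (Pearson r 0.958), Ube2d2a (0.954) and Ywhae (0.947), and these stayed at 0.931, 0.912 and 0.931 over the 6 arrays without replicates 5 and 6. Mdm2 was nearest to Scamp1 (0.978, and 0.963 over the 6 arrays), Hnrnph1 and Gart, and Ccng1 to Ccdc50 (0.978, and 0.933), Bcap29 and Gm10046. All of these were highest on replicate 5. Ccnd3 was nearest to Slc39a7 (0.981, and 0.905), Csnk1d and Ets1, and Tk1 to Timm44 (0.979, and 0.851), Mepce and Rbck1, all lowest on replicate 5. Ccnd1 was nearest to Cfi (0.947, and 0.854), Lcp1 and Galm, all lowest on replicate 6. These genes were picked for a high r, which is therefore no evidence of a link, and no other member was among the nearest 3 of any.

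The partners of these genes were read from 8 lists holding 135 genes, of which 105 were on the array and 59 passed the filter. The limma test called 0 of the 59 after adjustment and 8 before it, beside 5.67% of kept probe sets; 5 of the 8 were among glucocorticoid and fasting responsive genes. Cyclin-dependent kinases and their inhibitors (8 kept of 15) had 0 called and 5 with more than a 2-fold range (beside 38.6% of kept probe sets). On replicate 5, 4 were highest (beside 34.1% of kept genes) and 3 lowest (beside 28.3%). Cdk4, the kinase partner of the D-type cyclins, was at 1419 ± 222 (SD, n = 8), with 954 on replicate 5 and 1618 on replicate 1. Like Ccnd3, it was lowest on replicate 5. Cdk5, a kinase known mainly from neurons, was 143 on replicate 5, where the other 7 arrays held 584 to 660. Cdk9, which drives transcription elongation, was 488 there and otherwise at 923 to 1109.

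In the retinoblastoma and E2F family (3 kept of 11) all 3 kept genes were highest on replicate 5, beside 34.1% of kept genes. Rbl2, which encodes the pocket protein p130 of quiescent cells, reached 430 on replicate 5 and 334 on replicate 6, the remaining arrays lying at 165 to 270.0. Tfdp1, the dimer partner of E2F, was at 766 ± 175. Of the other cyclins (8 kept of 13), 4 had more than a 2-fold range, beside 38.6% of kept probe sets: Ccna2, the S phase cyclin, ran from 212 on replicate 4 to 482 on replicate 7, and Ccne1, which drives entry to S phase, from 130.3 on replicate 7 to 328 on replicate 6.

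Further p53 targets (9 kept of 26, the members not counted) were highest on replicate 5 for 5 of 9, beside 34.1%, and lowest there for 2, beside 28.3%. Gadd45a, a growth arrest gene, ran from 44.9 on replicate 6 through a median of 262 to 559 on replicate 5, a 12.5-fold range and a log2 variance ratio of 3.47. Both extremes were on the doubtful arrays, and without replicates 5 and 6 its range was 2.30-fold (147 to 338). Btg2, an antiproliferative gene, was lowest on replicate 4 (179), with 325 to 531 in the other animals. Ei24 (2715 ± 517) was instead lowest on replicate 5 at 2132, but only just under replicate 4 at 2178. The set of Plk3 (7700 ± 999) was lowest there as well, at 5876, with replicate 8 next at 6437. The p53 targets did not run one way on that array. Among p53 regulators (5 kept of 15), Mdm4, the relative of Mdm2 that inhibits p53, was at 641 ± 117, with 475 on replicate 6 and 837 on replicate 5, and the deubiquitinase Usp7 at 711 ± 86.2, also highest on replicate 5.

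Of the 29 proliferation and S phase genes listed, 25 were on the array and 8 passed the filter, with a median log2 variance ratio of −0.23. Pcna, the sliding clamp of replication, was at 625 ± 125, from 488 on replicate 6 to 872 on replicate 5, so it was high where the brighter Tk1 set was low. The replication helicase subunit Mcm7 was at 188 ± 49.3 and lowest on replicate 5 (119). In the deoxynucleotide salvage list (4 kept of 10), Dguok was steady at 943 ± 57.0, and Dck was highest on replicate 5 (545) and otherwise 251 to 392. Glucocorticoid and fasting responsive genes (14 kept of 16) were highest on replicate 6 for 10 of 14, beside 18.8% of kept genes, and lowest on replicate 5 for 6 of 14, beside 28.3%. More than a 2-fold range was seen in 12 of 14, beside 38.6% of kept probe sets. This list was chosen with earlier results of these data known, so its counts are a description only. Igfbp1 was 3297 on replicate 6 and 363 to 773 elsewhere. Replicate 6 was also the array with the lowest Ccnd1 by its brighter set, while Cdkn1a there was 147, 0.926 times the median of the other 7.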

How the data were processed

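The deposited values are intensities on a linear scale, 1 per probe set and array. Per the labels, the scanner of the U74Av2 arrays was a Hewlett-Packard GeneArray; image software and background handling: not given in the sources used here. Array medians ran from 132 to 166, so the 12422 sets that are no controls were quantile-normalized, raised to a floor of 24.6 (their 20th percentile) and put on the log2 scale. Sets with a mean above the median (6211) were kept. Symbols came from the platform annotation: 10833 sets had 1, 396 several and 1193 none. limma (3.58.1, R 4.3.3) tested variance, and exact 2-sided permutation tests (40320 pairings) tested correlations. The scripts were tested on simulated data. Named genes were the members, the 3 genes most like each kept member, and the 2 brightest and 2 most variable genes of each list. Members and lists were chosen with earlier results of these data known. Nothing in the labels gives a batch, and p-values measure the spread between 8 arrays. The alternatives were the deposited scaling, other floors and filters, probe set choices, another prior, the first principal component removed, and arrays left out.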

Additional observations from a re-analysis of the deposited data

Results flagged for a closer look

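In 54 sets of 8 values, the members' measurable probe sets and the other named genes, 16 had 1 array set apart by Dixon's ratio. Chance flags about 1 in 20 such groups, and 20.8% of the 4810 kept genes were flagged in these data. Members were among them: Ccnd1 on replicate 6 at 441 (others 772 to 1197), Ccnd3 on replicate 5 at 332 (others 573 to 867) and Tk1 on replicate 5 at 716 (others 1180 to 1799). Of the partner genes, Cdk9 (488) and Cdk5 (143) were set apart low on replicate 5, Btg2 (179) low on replicate 4 and Igfbp1 (3297) high on replicate 6. Of the genes most like a member in pattern, Ccdc50 was high on replicate 5 at 1439 (others 638 to 881). Set apart low on the same array were Slc39a7 at 584, Csnk1d at 791, Ets1 at 40.7, Timm44 at 232, Mepce at 644 and Rbck1 at 695. Lcp1 at 673 and Galm at 1983 were low on replicate 6. These likeness genes were picked for following a member, so their flags repeat those of the member.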

How the results depend on the processing

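Under all 17 alternatives, 0 members, 0 listed partner genes and 0 member pairs passed their tests. The lowest adjusted p over the alternatives was 0.753 for a member (limma) and 0.0798 for a pair (exact permutation). No kept probe set passed the limma test under any of them either (lowest adjusted p 0.338), so its zeros say little about the members. The count of members with more than a 2-fold range (4) became 1 with the first principal component removed and 0 without both replicates 5 and 6, and lay between 1 and 4 with single arrays left out, 1 being without replicate 5. Cdkn1a gave a value under 14 alternatives, Mdm2 and Ccng1 under 16, the others being below the level filter. The sign of the log2 variance ratio turned for Mdm2 with the deposited scaling (−0.25), for Cdkn1a with a constant prior (0.24), for Ccnd3, Mdm2 and Ccng1 with the component removed (−0.35, −0.86 and −0.89), for Mdm2 and Ccng1 without both replicates 5 and 6 (−1.09 and −0.36), and for Ccnd3, Mdm2 and Ccng1 without replicate 5 (−0.071, −0.57 and −0.83). With single arrays left out these ratios ranged from −0.071 to 1.48 for Ccnd3, −0.57 to 0.25 for Mdm2 and −0.83 to 0.86 for Ccng1, and, with no turn, from 0.24 (without replicate 6) to 2.92 (without replicate 5) for Ccnd1 and 0.53 to 1.58 for Tk1. Pearson r turned for Ccnd1 and Ccnd3 (0.257) and for Ccnd1 and Tk1 (0.0200) with the mean over probe sets, and for Cdkn1a with Ccng1 (−0.108) and with Mdm2 (−0.522) with the component removed. Without both replicates 5 and 6 it was −0.0715 for Cdkn1a and Ccng1, −0.405 for Cdkn1a and Mdm2, −0.614 for Cdkn1a and Ccnd1, 0.61 for Ccng1 and Mdm2, 0.121 for Ccnd1 and Ccnd3 and 0.0732 for Ccnd1 and Tk1. The r of Ccng1 and Mdm2 was 0.152 with the component removed. With single arrays left out r ranged from 0.313 (without replicate 5) to 0.907 (without replicate 6) for Ccng1 and Mdm2, −0.0495 to 0.761 for Cdkn1a and Ccng1, −0.373 to 0.575 for Cdkn1a and Mdm2, −0.593 to 0.0760 for Cdkn1a and Ccnd1, −0.279 to 0.253 for Ccnd1 and Ccnd3, and −0.525 to 0.236 for Ccnd1 and Tk1. Of the other checks, the mean log2 signal of a gene moved by more than 1 SD in 2 and not in 95, and its log2 range in 14 and not in 83. The cause of these turns was not tested, beyond the arrays left out. Signal limits the reading of Cdkn1b and Ccnd2, at or near the floor, and Cdkn1a lies just above the filter (161 against 149 as geometric means).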

Other observations

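Hipk2, a kinase that phosphorylates p53, was low on both arrays with a raised pyruvate carboxylase ratio. Its signal was 25.4 for replicate 5, 15.4 for replicate 6 and between 331 and 592 for the 6 remaining arrays, a log2 variance ratio of 5.16. With the floor at 24.6, replicate 6 lay under it and replicate 5 just above it. The ratio was computed with replicate 6 raised to the floor, so the size of the drop is not a measured value. The E3 ligase Cop1, which also acts on p53, lay between 221 (replicate 4) and 452 (replicate 2), with 277 on replicate 5.

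The platform names 2 probe sets for Trp53-ps, a p53 pseudogene, and these are no measure of Trp53. The brighter was at 560.4 ± 74.5 (SD, n = 8) and ran from 460.1 on replicate 8 to 657 on replicate 6; the dimmer ran from 49.6 on replicate 6 to 93.0 on replicate 2.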
